A study of Mus musculus with 8 samples.

Results

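The 51 genes described here are markers of macrophages, monocytes and other myeloid cells, given as a list and matched by symbol in 2 deposited count tables that together hold 19805 genes. No measured value of these libraries was a rule for the list, but it was drawn up with earlier results of them known. The list is therefore not independent of their values. In the table of group 2 innate lymphoid cells (ILC2s), 33 of the 51 genes were present, and in the table of CD8 T cells 26 were. The list is split here into 10 genes of alveolar macrophages and lipid handling, 14 of monocyte and myeloid identity, 10 of uptake receptors and opsonins, 6 of Fc receptors and their adaptors, 8 of lectins and inhibitory receptors and 3 of secreted protease inhibitors.

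The libraries came from primary cells of wild-type mice, ILC2s of lung and CD8 T cells of spleen, per the labels. The 4 groups, of 2 libraries each, were ILC2s from co-culture with CD8 T cells, ILC2s cultured on their own, CD8 T cells from co-culture with ILC2s and CD8 T cells cultured on their own. Co-culture lasted 3 days at 5 CD8 T cells to 1 ILC2, and both cell types were then separated by flow cytometry. Neither the sort gates nor the age of the mice is given in the labels, and nothing there says that the 2 replicates of a group came from separate animals or cultures, so a p-value here speaks only of the spread among these libraries, which may be technical. The question put to these genes was whether their RNA in each cell type differed after co-culture from that after separate culture.

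The ILC2 libraries went partly against their labels, and this precedes every result. Gata3, the transcription factor that ILC2s depend on, stood at 1317 and 1237 CPM (reads scaled to the library total, as CPM throughout) in ILC2 co-cultured libraries, against 429 and 399 CPM in ILC2 alone libraries. The 15 listed ILC2 markers summed to 12718 and 12427 CPM in co-cultured and 5120.2 and 5099 CPM in alone libraries, so they were present in all 4 and lower in those labelled alone. Markers of other cells ran the other way. The 10 T cell markers summed to 311 and 382 CPM in ILC2 co-cultured libraries, against 1602 and 1565 CPM in ILC2 alone libraries, and Cd8a, a subunit of the CD8 co-receptor, stood at 6.09 and 6.76 against 249 and 258 CPM. Of the 10, 9 were called lower in co-cultured libraries, as were 6 of the 8 fibroblast markers in the table. The share called lower over all tested genes was 34.4%. Listed fibroblast markers in the table summed to 123 and 133 CPM in co-cultured libraries, against 5183 and 5600.4 CPM in alone libraries, with Col1a1, a chain of type I collagen, at 0.640 and 0.312 against 1068 and 1226 CPM. Pdgfra, a receptor that marks fibroblasts, and Col3a1 were not in the ILC2 table. Groups are therefore called by their labels throughout, and every direction is that of the labels. Whether libraries were exchanged, or cells of other types were among those labelled ILC2s alone, was not tested, and either would change what the directions in ILC2s mean. Library totals were 48471801 and 48072595 counts for ILC2 co-cultured, 60738117 and 55417551 for ILC2 alone, 66170866 and 67076905 for CD8 co-cultured and 52664716 and 57077134 for CD8 alone libraries.

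Macrophages are phagocytes that develop from fetal progenitors or from blood monocytes. Their identity rests on the transcription factor PU.1, encoded by Spi1, with C/EBP factors, and on signalling through the CSF1 receptor. In the lung, alveolar macrophages live in the airspaces, depend on GM-CSF and handle the lipids of surfactant, and they are known for high levels of lipid-handling genes and of the chitinase-like protein Chil3. Macrophages recognise particles through scavenger receptors, Fc receptors and C-type lectins, and inhibitory receptors on the same cells restrain them. ILC2s are lymphocytes and lack most of these genes, although some of the listed genes, such as those of lipid storage, are used by many cell types.

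PU.1 binds purine-rich sites, so the stretch of 250 bases just upstream of each RefSeq start (GRCm38.p6) was searched for the letters GAGGAA on both strands. RefSeq promoters were matched for 36 of the 51 genes, with 41 promoters in all. The letters were found in 22 of these 41 promoters (53.66%), and in 10 of 25 promoters (40%) of genes called lower in ILC2 co-cultured libraries, against 23.25% of all 32851 promoters. The C/EBP letters TTGCNNAA were in 7 of the 41 (17.07%) against 9.564% of all promoters, and the AP-1 letters TGANTCA in 4 of the 41 (9.756%) against 6.749%. A match is only a run of letters, and a promoter without one says nothing of the factor. The 4 promoters shown, picked after the values were known, belong to the gene with the lowest log2 change in ILC2s (Spp1), to an Fc receptor and an inhibitory receptor that the CD8 table does not hold (Fcgr4 and Pirb) and to the gene whose ILC2 co-cultured replicates were farthest apart (Chil3). Each is written 5′ to 3′ on the strand of its gene, with GAGGAA or its reverse complement in capitals. The Spp1 stretch is chr5:104434861-104435110 (plus strand), the Fcgr4 stretch chr1:171018676-171018925 (plus strand), the Pirb stretch chr7:3720383-3720632 (minus strand) and the Chil3 stretch chr3:106167565-106167814 (minus strand).
Spp1: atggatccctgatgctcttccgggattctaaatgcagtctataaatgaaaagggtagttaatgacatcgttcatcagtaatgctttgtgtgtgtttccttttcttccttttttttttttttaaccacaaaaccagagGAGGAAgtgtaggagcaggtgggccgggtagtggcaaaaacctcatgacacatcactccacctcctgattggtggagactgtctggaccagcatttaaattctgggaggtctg
Fcgr4: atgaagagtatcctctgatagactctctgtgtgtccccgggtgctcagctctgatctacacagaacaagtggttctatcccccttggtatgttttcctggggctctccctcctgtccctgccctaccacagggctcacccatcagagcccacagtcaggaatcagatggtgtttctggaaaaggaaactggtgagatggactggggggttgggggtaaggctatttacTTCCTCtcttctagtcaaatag
Pirb: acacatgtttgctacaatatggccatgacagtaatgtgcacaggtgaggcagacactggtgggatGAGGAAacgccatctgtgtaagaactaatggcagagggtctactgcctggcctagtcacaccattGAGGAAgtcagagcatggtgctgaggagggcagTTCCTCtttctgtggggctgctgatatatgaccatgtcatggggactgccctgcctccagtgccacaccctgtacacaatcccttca
Chil3: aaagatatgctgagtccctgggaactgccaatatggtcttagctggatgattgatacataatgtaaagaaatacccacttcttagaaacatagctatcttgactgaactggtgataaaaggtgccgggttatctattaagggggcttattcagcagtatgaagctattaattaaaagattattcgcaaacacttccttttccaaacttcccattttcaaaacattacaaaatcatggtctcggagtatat
RefSeq gives Spp1 another promoter, chr5:104435942-104436191, which holds 0 matches. The Spp1 stretch shown holds 1 match, beginning at position -113 from the start, the Fcgr4 stretch 1 at -22, the Pirb stretch 3 at -185, -120 and -87, and the Chil3 stretch none.

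Nearly all myeloid genes measured in the ILC2 table were lower in co-cultured than in alone libraries. Of the 33 genes, 30 fell and 3 rose (edgeR quasi-likelihood test, adjusted p under 0.05 over 16739 genes). Over all tested genes 34.4% were lower and 31.8% higher in that comparison, 66.3% in all. A log2 change (co-cultured over alone) of -3 or lower, an 8-fold fall, was found for 21 of the 33, against 5.88% of all tested genes. The CPM values of the 2 groups did not overlap for 30 lower genes and 2 higher ones, where 49.6% of all tested genes were lower and 33.8% higher without overlap. The median log2 change over the 33 genes was -3.72, beside -0.01 over all tested genes. The 33 genes together held 2158 and 1993 CPM in ILC2 co-cultured libraries, against 17715 and 18326 CPM in ILC2 alone libraries, where they were 1.77% and 1.83% of all counts. The T cell and fibroblast markers given above moved the same way between the same libraries, and their part in these falls was not tested. In bulk RNA, fewer cells of a type and less RNA per cell cannot be told apart.

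**Figure D1:**
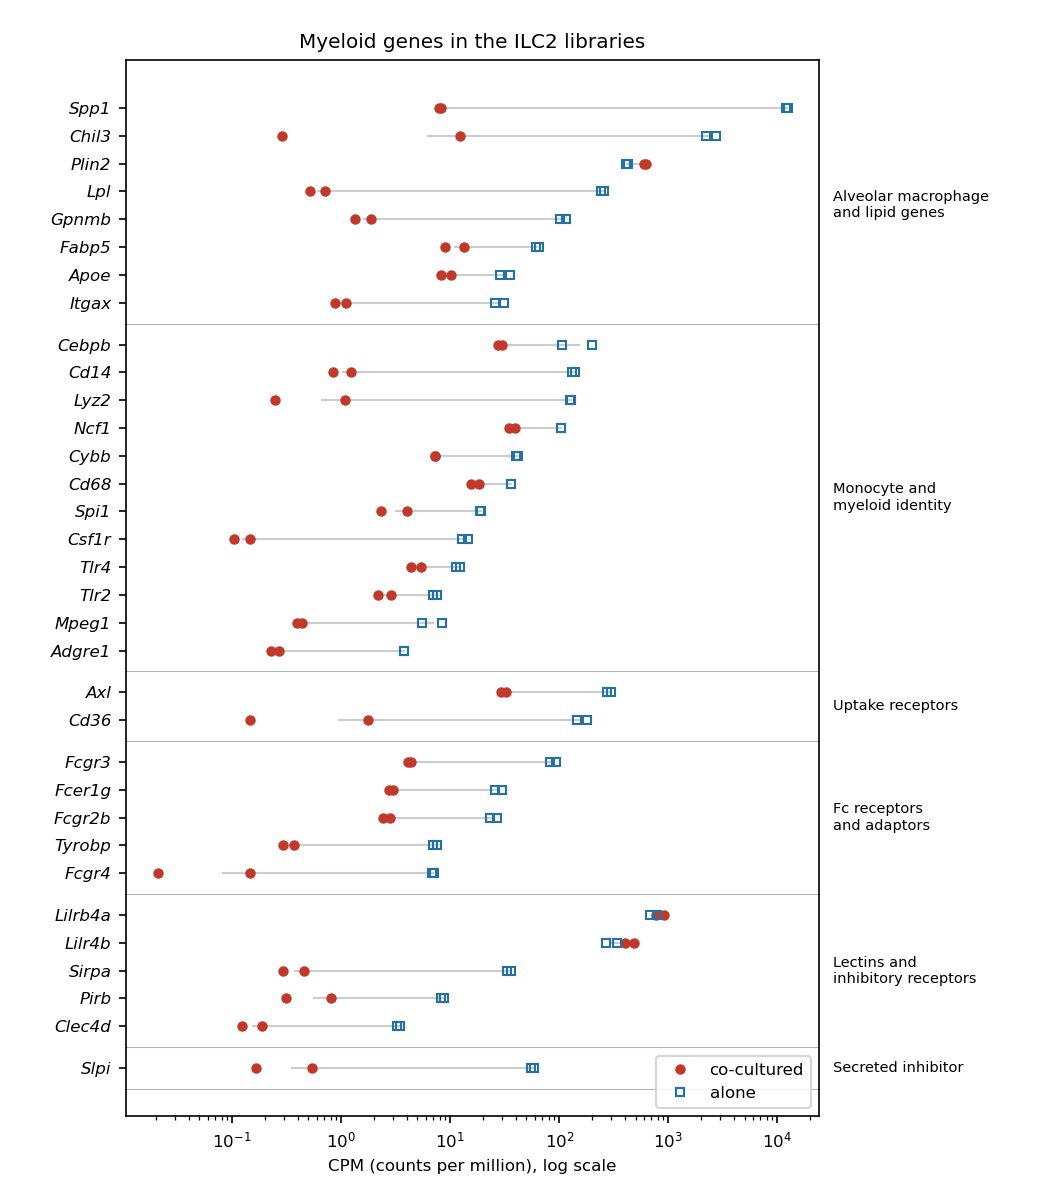
CPM of the 33 myeloid genes in each ILC2 library, on a log axis, grouped by role. Filled circles are the 2 co-cultured and open squares the 2 alone libraries, and grey lines join group means. Circles lie left of squares for 30 genes; Plin2, Lilrb4a and Lilr4b have the higher mean in co-cultured libraries.

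The tables hold no value of 0, so a gene with no read in even 1 of a table's 4 libraries is not listed in it, and the 33 genes are those that kept at least 1 read in every ILC2 library. Those with few reads in co-cultured libraries passed the low-count filter through the alone libraries, so the counts and the median of the 33 are a description only. In neither table were 15 of the 51: the alveolar macrophage genes Ear2 and Fabp4, the G-CSF receptor gene Csf3r, the scavenger receptor genes Marco and Msr1, the apoptotic cell receptor genes Mertk and Trem2, the complement genes C1qa, C1qb and C1qc, the high-affinity Fc receptor gene Fcgr1, the lectin genes Clec4n and Clec4e, and Wfdc17 and Wfdc21. Itgam, Mrc1 and Clec7a were in the CD8 table but not in the ILC2 table. Of these 3 only Clec7a, the beta-glucan receptor dectin-1, passed the test in CD8 T cells. For Itgam, 72.4% of the 50-base windows of its longest coding transcript are shared with other genes, mostly Gm49368. Its presence in a table and its level may therefore depend on how reads were assigned. The ILC2 table, and not the CD8 table, held 10 genes, namely Spi1, Cd14, Adgre1, Mpeg1, Cybb, Cd36, Fcgr4, Clec4d, Pirb and Sirpa. How many reads an unlisted gene had in the other libraries was not analysed here.

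The genes listed under alveolar macrophages and lipid handling held most of the myeloid genes' summed CPM in ILC2 alone libraries, and Spp1 held most of theirs. Of the 8 in the ILC2 table, 7 fell and Plin2 rose, with a median log2 change of -5.24, where 34.4% of all tested genes fell. They summed to 627 and 670.1 CPM in ILC2 co-cultured libraries, against 15213 and 16013 CPM in ILC2 alone libraries. Spp1, which encodes the secreted glycoprotein osteopontin, stood at 8.21 and 7.86 CPM in ILC2 co-cultured libraries, against 12104 and 12389 CPM in ILC2 alone libraries. Its mean CPM was 1524-fold lower and its log2 change -10.36 (SE 0.151, edgeR adjusted p = 7.54e-12). By count it ranked 8782 and 8961 among all genes of the ILC2 co-cultured libraries, against 1 and 2 in the ILC2 alone libraries, where it took 1.21% and 1.24% of all counts. It lies on chromosome 5 at 104435118 to 104441050 (GRCm38). Many activated cells make Spp1, T cells and stromal cells among them. The T cell and fibroblast markers were higher in the same 2 libraries, while Spp1 stood at 68.6 and 83.5 CPM in CD8 alone libraries. Which cells the Spp1 reads of the ILC2 alone libraries came from was not tested.

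Chil3, a chitinase-like protein secreted by alveolar macrophages and also known as Ym1, stood at 0.289 and 12.2 CPM in ILC2 co-cultured libraries, against 2218 and 2719.5 CPM in ILC2 alone libraries. Its log2 change was -8.45 with a wide error (SE 0.927, edgeR adjusted p = 8.66e-06), since the co-cultured libraries held 14 and 585 reads. Without co-cultured replicate 2 the change was -12.80, and without co-cultured replicate 1 it was -7.52. Chil3 lies on chromosome 3 at 106147554 to 106167564, and 29.4% of the 50-base windows of its transcripts are shared with other genes, mostly Chil4, so reads of the 2 genes may be mixed.

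Lpl, the lipoprotein lipase that releases fatty acids from lipoproteins, stood at 0.516 and 0.707 CPM in ILC2 co-cultured libraries, against 258 and 243 CPM in ILC2 alone libraries (log2 change -8.46, SE 0.187). Gpnmb, a membrane glycoprotein of lipid-laden macrophages, stood at 1.34 and 1.89 CPM against 102 and 115 CPM (-5.85, SE 0.183). Itgax, the CD11c integrin chain that alveolar macrophages and dendritic cells carry, stood at 1.11 and 0.874 CPM against 26.0 and 31.0 CPM (-4.62, SE 0.21). The 2 groups were far apart for all 3 genes and each pair of replicates was close. Smaller falls were those of the fatty acid carrier Fabp5 (9.04 and 13.3 CPM co-cultured against 64.8 and 60.8 CPM alone, -2.29) and of Apoe, a lipid transport protein (10.1 and 8.24 against 35.1 and 28.5 CPM, -1.58).

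Plin2 coats lipid droplets in many cell types and ran the other way. It stood at 596 and 625 CPM in ILC2 co-cultured libraries, against 405 and 426 CPM in ILC2 alone libraries, or 0.77 as a log2 change (SE 0.111, edgeR adjusted p = 8.05e-05). When libraries were scaled to the listed ILC2 marker genes instead, which shifts all genes alike, the change of Plin2 was -0.88, still above the median of all genes. The same setting gave 0 of the 33 genes higher and 33 lower. It moved that median of all genes to -1.66 and the share of called genes that were higher to 2.56%, beside 48% with TMM scaling, the usual correction for library composition.

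Per kilobase of exon, Plin2 (174 CPM per kb), Lilrb4a (161), Lilr4b (81.2), Cebpb (19.1) and Cd68 (13.5) stood highest of the 33 in ILC2 co-cultured libraries. Spp1 stood at 4.88 there and Csf1r last at 0.0215. Length here is that of all annotated exons joined, which can exceed the transcript. Lilrb4a has 5227 such bases but 1332 different 50-base windows in its longest coding transcript, and Plin2 has 3512 and 1839. The order of these 2 genes in co-cultured libraries therefore depends on the length used. In ILC2 alone libraries the order was Spp1 (7431 CPM per kb), Chil3 (1513), Lilrb4a (141), Plin2 (118) and Cebpb (102).

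All 12 monocyte and myeloid identity genes in the ILC2 table fell, with a median log2 change of -2.34. Of all tested genes, 34.4% were called lower. Lyz2, Cd14 and Csf1r had the largest falls of the 12. Cd14, a co-receptor for bacterial lipopolysaccharide, stood at 0.846 and 1.23 CPM in ILC2 co-cultured libraries, against 132 and 139.7 CPM in ILC2 alone libraries (log2 change -6.82, SE 0.186). Lyz2, the lysozyme of macrophages and neutrophils, stood at 0.248 and 1.08 CPM against 128 and 125 CPM (-7.37, SE 0.328), or -8.74 without co-cultured replicate 2 and -6.72 without co-cultured replicate 1, with 15.4% of its 50-base windows shared with other genes, mostly Lyz1. Csf1r, the receptor that macrophages need to survive, stood at 0.103 and 0.146 CPM against 12.7 and 14.5 CPM (-6.54, SE 0.285, edgeR adjusted p = 4.43e-09). The 3 genes had no overlap between groups. Adgre1, which encodes F4/80, stood at 0.227 and 0.270 against 3.79 and 3.75 CPM (-3.70), and Mpeg1, which encodes the pore-forming perforin-2, at 0.433 and 0.395 against 8.46 and 5.49 CPM (-3.85).

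Transcription factors and genes of oxidative killing fell less. Spi1 stood at 2.31 and 3.99 CPM in ILC2 co-cultured libraries, against 18.9 and 19.1 CPM in ILC2 alone libraries (log2 change -2.38, SE 0.216). Cebpb, a C/EBP factor that many activated cells express, stood at 29.8 and 27.5 CPM against 200.4 and 106 CPM (-2.20, SE 0.238), and its alone libraries were farther apart than its co-cultured ones. Of the phagocyte oxidase, the membrane subunit Cybb stood at 7.22 and 7.18 against 40.0 and 41.8 CPM (-2.29) and the cytosolic organiser Ncf1 at 39.2 and 34.4 against 103 and 103 CPM (-1.27). The endosomal protein gene Cd68 had the smallest fall of the 30 that fell, with 15.6 and 18.4 CPM against 36.4 and 36.0 CPM (-0.88, SE 0.134, edgeR adjusted p = 0.00012). The receptor genes Tlr2 and Tlr4, which sense bacterial lipoproteins and lipopolysaccharide, fell by 1.30 and 1.05 on the log2 scale. Cebpb, Csf1r and Ncf1 each overlap a gene on the opposite strand (Tmem189, Hmgxb3 and Gtf2ird2), and without a stated strand setting their reads cannot be separated.

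Both uptake receptor genes in the ILC2 table fell, beside 34.4% of all tested genes. Cd36, a scavenger receptor for oxidised lipids and fatty acids, stood at 0.144 and 1.75 CPM in ILC2 co-cultured libraries, from 7 and 84 reads, against 146 and 180.3 CPM in ILC2 alone libraries. Its log2 change was -7.23 (SE 0.484, edgeR adjusted p = 1.51e-07), or -9.87 without co-cultured replicate 2 and -6.40 without co-cultured replicate 1. Axl, a receptor tyrosine kinase that binds apoptotic cells through Gas6 and that stromal cells also express, stood at 29.1 and 32.2 CPM against 276 and 298 CPM (-3.02, SE 0.127). The other 8 of this group, Marco, Msr1, Mrc1, Mertk, Trem2, C1qa, C1qb and C1qc, were not in the ILC2 table.

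All 5 Fc receptor and adaptor genes in the ILC2 table fell, each by more than 8-fold, beside 5.88% of all tested genes. Fcgr3, an activating receptor for IgG, stood at 4.06 and 4.37 CPM in ILC2 co-cultured libraries, against 82.3 and 94.0 CPM in ILC2 alone libraries (log2 change -4.17, SE 0.152). Fcgr2b, the inhibitory IgG receptor of B cells and myeloid cells, stood at 2.79 and 2.39 CPM against 22.9 and 26.8 CPM (-3.05, SE 0.183). These 2 genes share 12.8% of the windows of Fcgr3 and 7.44% of those of Fcgr2b with other genes, mostly each other, so their reads may be mixed. Fcgr4, a receptor of monocytes and macrophages in the mouse, had 1 and 7 reads in co-cultured libraries, 1.20% of its pooled level in alone libraries (95% exact counting interval 0.518% to 2.39%), where it stood at 6.73 and 7.04 CPM. Its fitted log2 change was -6.13, or -8.0 without co-cultured replicate 2 and -5.40 without co-cultured replicate 1. Intervals of this kind cover counting error only. The signalling chain Fcer1g, which mast cells and NK cells share with macrophages, stood at 2.72 and 2.95 CPM against 25.7 and 29.9 CPM (-3.08), and the adaptor Tyrobp, which encodes DAP12, at 0.371 and 0.291 against 7.62 and 7.0 CPM (-4.24).

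Lectin and inhibitory receptor genes split, with 3 lower and 2 higher of the 5 in the ILC2 table. The shares over all tested genes were 34.4% lower and 31.8% higher. Sirpa, which binds CD47 and restrains uptake of cells, stood at 0.454 and 0.291 CPM in ILC2 co-cultured libraries, against 33.2 and 35.7 CPM in ILC2 alone libraries (log2 change -6.31, SE 0.228, edgeR adjusted p = 9.8e-10). Pirb, an inhibitory receptor for MHC class I, stood at 0.309 and 0.811 against 8.23 and 8.81 CPM (-3.72, SE 0.328), or -4.52 without co-cultured replicate 2, with 37.3% of its windows shared, mostly with Gm14548. Clec4d, a C-type lectin receptor of myeloid cells, stood at 0.124 and 0.187 against 3.28 and 3.46 CPM (-4.21). All 3 had groups that did not overlap.

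The paired immunoglobulin-like receptor genes Lilrb4a and Lilr4b were abundant in all 4 ILC2 libraries. Lilrb4a stood at 907 and 772 CPM in ILC2 co-cultured libraries, against 794 and 681 CPM in ILC2 alone libraries, so the groups overlapped. Its log2 change of 0.41 (SE 0.133, edgeR adjusted p = 0.0183) was not called without alone replicate 2 (adjusted p = 0.0751), without co-cultured replicate 1 (0.204) or with library totals in place of TMM scaling (0.183). Lilr4b stood at 479 and 404 CPM against 338 and 268 CPM without overlap (0.76, SE 0.147, edgeR adjusted p = 0.000743). With scaling to the ILC2 markers the changes were -1.26 for Lilrb4a and -0.90 for Lilr4b. Every 50-base window of Lilrb4a is shared with a read-through gene, Gm49339, and 24.3% of those of Lilr4b are shared with other genes, so their separate levels are uncertain.

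Slpi was the only secreted protease inhibitor gene of the 3 in the ILC2 table. It encodes an inhibitor of neutrophil elastase made by epithelium and phagocytes. It stood at 0.536 and 0.166 CPM in ILC2 co-cultured libraries, against 55.3 and 58.8 CPM in ILC2 alone libraries, or -7.11 as a log2 change (SE 0.293, edgeR adjusted p = 2.84e-09). Without co-cultured replicate 2 it was -6.48 and without co-cultured replicate 1 it was -8.26.

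The 2 ILC2 co-cultured libraries were unlike each other in some of these genes. Between them, 6 of the 33 genes differed by more than 2-fold (18.2%, against 8.90% of all tested genes), and none of the 33 did so between the alone libraries (3.51% of all tested genes). Chil3 was 42.1-fold, Cd36 12.1-fold, Fcgr4 7.06-fold, Lyz2 4.37-fold and Pirb 2.62-fold higher in replicate 2, while Slpi was lower there. Of the 16739 tested genes, 7 were at least as far apart as Chil3 between these libraries, itself included, and 60 as far as Cd36. Outside the list, the genes higher in replicate 2 included the fibronectin gene Fn1 with 8 and 84 reads and the cathepsin gene Ctsk with 7 and 37 reads. Both were named after their values were seen, and the fibroblast marker Col1a1 was lower in replicate 2. Fn1 and Ctsk stayed far below their alone libraries, as did all 6 myeloid genes. Spp1, Cd14 and Sirpa were within 2-fold between the same libraries.

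**Figure D2:**
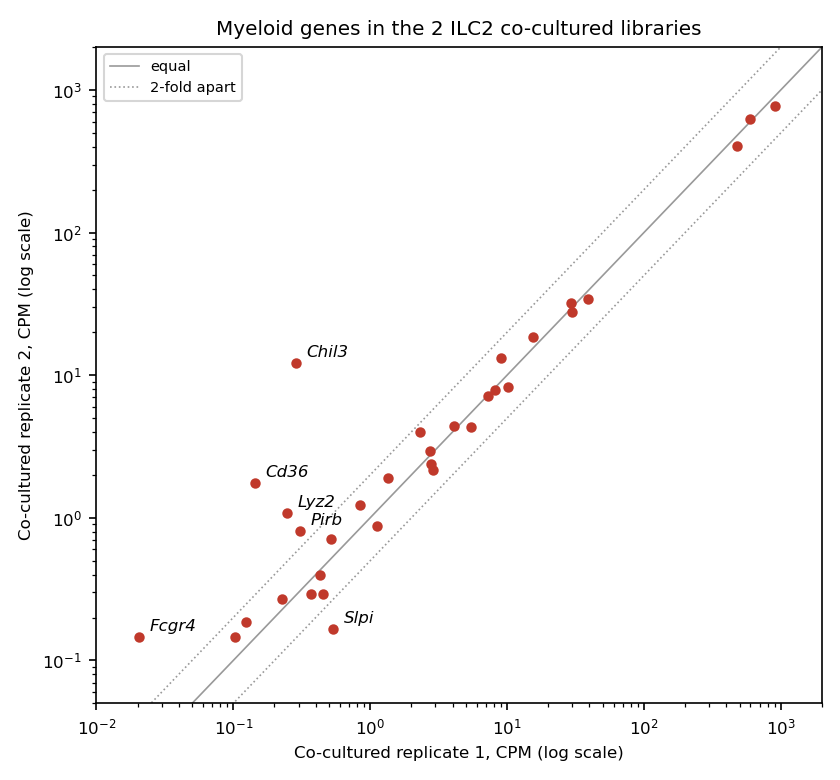
CPM of the 33 myeloid genes in the 2 ILC2 co-cultured libraries, replicate 1 across and replicate 2 up, both on log axes. The solid line marks equal values and dotted lines a 2-fold difference. Chil3, Cd36, Fcgr4, Lyz2 and Pirb lie above the dotted lines and Slpi below.

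Most further alveolar macrophage and monocyte genes in the ILC2 table fell, while fewer oxidase and kinase genes fell than rose. Over all tested genes 34.4% were called lower and 31.8% higher. Of the 10 further alveolar macrophage genes in the ILC2 table, 7 fell and 2 rose. Ctsk, the cysteine protease cathepsin K, stood at 0.144 and 0.770 CPM in ILC2 co-cultured libraries, against 99.4 and 109 CPM in ILC2 alone libraries (log2 change -7.62). The tetraspanin Cd9 (-5.62), the keratin Krt19 (-5.17) and the proton pump subunit Atp6v0d2 (-4.59) fell as well. Pparg, a nuclear receptor that alveolar macrophages require and ILC2s also express, was higher at 361 and 320 CPM in ILC2 co-cultured libraries, against 102 and 97.2 CPM in ILC2 alone libraries (1.99, SE 0.129).

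Of 13 further monocyte and macrophage genes in the ILC2 table, 8 fell and 2 rose. The complement receptor genes C5ar1 (log2 change -5.77) and C3ar1 (-3.64) and the monocyte surface gene Ly6c2 (-3.44) fell, and the chemokine receptor gene Ccr2 rose to 693 and 579 CPM in ILC2 co-cultured libraries, against 64.2 and 65.4 CPM in ILC2 alone libraries (3.51, SE 0.146). Of 13 oxidase and signalling kinase genes, 4 fell and 6 rose, with a median log2 change of 0.11. The myeloid Src kinase Fgr (-4.24) was among the falls. Inpp5d, a phosphatase of all blood lineages also called SHIP1, had the largest rise of this list (1.58), and the phosphatase gene Ptpn6 fell by 1.01.

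The macrophage growth factors and receptor chains in the ILC2 table all fell, 5 of 5, beside 34.4% of all tested genes. Csf1, the ligand of Csf1r, stood at 2.35 and 3.81 CPM in ILC2 co-cultured libraries, against 282 and 313 CPM in ILC2 alone libraries (log2 change -6.39, SE 0.202). Csf2, which encodes GM-CSF, stood at 1.61 and 1.83 CPM against 46.4 and 35.7 CPM (-4.36, SE 0.189). The GM-CSF receptor chains Csf2rb (-2.06) and Csf2ra (-1.81) fell less. Ligand and receptor were thus lower in the same libraries for both factors.

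Markers of neutrophils were sparse, and the sums of other lineages' markers were lower in co-cultured libraries. Of 12 neutrophil markers, 10 were not in the ILC2 table, S100a8 and S100a9 among them. Mmp9, a gelatinase that other cells also make, accounted for nearly all of the list's sum of 4.77 and 2.54 CPM in ILC2 co-cultured libraries, against 862 and 875 CPM in ILC2 alone libraries (Mmp9 log2 change -7.73). The 8 dendritic cell markers in the table summed to 196 and 213 CPM against 582 and 615 CPM, with 4 lower and 1 higher. The 7 mast cell, basophil and eosinophil markers summed to 51.8 and 47.3 against 209 and 183 CPM, with 5 lower and 0 higher. Of all tested genes, 34.4% were called lower and 31.8% higher. Markers of B cells summed to 633 and 584 against 1819 and 1734 CPM, and those of NK cells to 143 and 171 against 731 and 753 CPM. Epithelial and endothelial markers summed to 245 and 233 against 356 and 357 CPM. Of the NK list Ncr1, Klra8 and Klra4 were not in the ILC2 table, and of the dendritic list Clec9a and Cd209a were not. In the CD8 table the listed NK markers summed to 2165 and 2139 CPM in co-cultured and 449 and 599 CPM in alone libraries. The dendritic ones summed there to 3664 and 3391 against 2253 and 2552 CPM. Neither sum is therefore particular to its cell type. The part of cells of these lineages in the myeloid genes' falls was not tested.

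**Figure D3:**
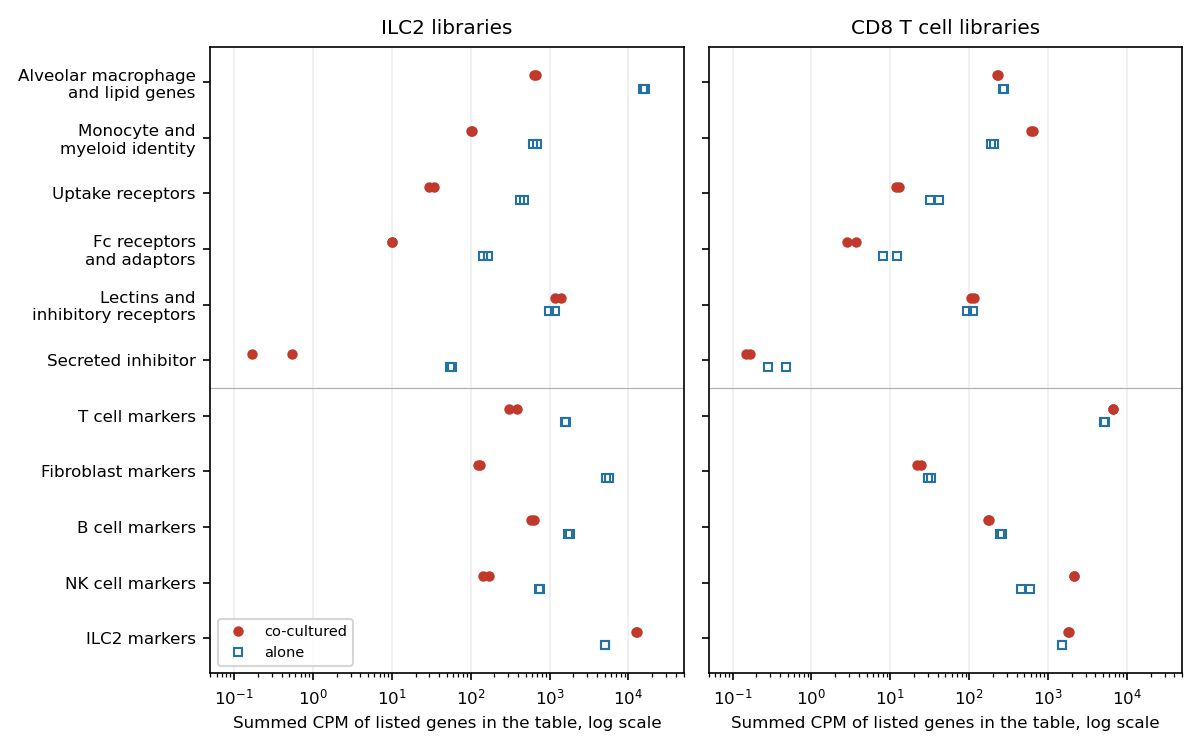
Summed CPM of the listed genes present in each table, on a log axis, for the 6 groups of myeloid genes and for 5 marker lists, with ILC2 libraries on the left and CD8 T cell libraries on the right. Filled circles are co-cultured and open squares alone libraries. In ILC2 libraries the alveolar macrophage and lipid sum is 627 and 670.1 CPM co-cultured against 15213 and 16013 CPM alone, while the ILC2 marker sum is higher in co-cultured libraries.

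In CD8 T cell libraries the listed genes moved in both directions. Of 25 tested genes, 6 rose and 13 fell, where 30.2% of 15948 tested genes were called higher and 30.7% lower, 60.9% in all. Genes with few reads in CD8 co-cultured libraries passed the low-count filter through the CD8 alone libraries, so these counts and the median are a description only. The median log2 change was -0.84, beside -0.01 over all tested genes. With a filter of 5 CPM in 2 libraries, 11 of the genes were left, 3 of them lower and 6 higher, and their median was 0.50. The 26 genes in the table summed to 1011 and 966 CPM in CD8 co-cultured libraries, against 619 and 618 CPM in CD8 alone libraries. The 4 CD8 libraries are separate from the ILC2 ones, so these values share no control with the ILC2 comparison.

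Most of the higher sum was Ncf1. It stood at 603 and 568 CPM in CD8 co-cultured libraries, against 153 and 175 CPM in CD8 alone libraries (log2 change 1.75, SE 0.083, edgeR adjusted p = 5.11e-09). Itgax, which activated CD8 T cells also carry, stood at 10.6 and 13 CPM against 2.66 and 2.28 CPM (2.18, SE 0.168). Cd68 stood at 31.0 and 29.4 CPM against 13.9 and 14.0 CPM (1.04, SE 0.0968). The other genes that rose were Plin2 (0.54), Lilr4b (0.52) and Chil3. Without overlap between groups, 8 of the 26 genes in the table were higher and 14 lower. Over all tested genes 44.1% were higher and 37.1% lower without overlap.

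Chil3 rose in CD8 T cell libraries, to 6.36 and 5.34 CPM in CD8 co-cultured libraries, against 0.513 and 0.333 CPM in CD8 alone libraries (log2 change 3.71, SE 0.252, edgeR adjusted p = 8.48e-08). Its replicates were close in both groups. The mean in CD8 co-cultured libraries was 0.237% of that in ILC2 alone libraries, and the mean in ILC2 co-cultured libraries was 0.252%. The latter averages libraries at 0.289 and 12.2 CPM and describes neither of them, so the closeness of the 2 percentages carries no meaning. These levels are set across tables that may have been made separately and are not tested.

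Of the 8 identity genes in the CD8 table, 2 rose, 3 fell and 3 were not called, with a median log2 change of -0.10. Over all genes tested there, 30.2% were called higher and 30.7% lower. The genes with the largest falls in CD8 T cells, whatever their role, were low in both groups. Lyz2 stood at 0.181 and 0.104 CPM in CD8 co-cultured libraries, against 3.74 and 2.17 CPM in CD8 alone libraries (log2 change -4.43, SE 0.392). Clec7a stood at 0.121 and 0.0894 CPM against 3.95 and 2.98 CPM (-5.09, SE 0.34), Lpl at 0.287 and 0.119 against 5.18 and 3.21 CPM (-4.43, or -5.18 without CD8 co-cultured replicate 1) and Gpnmb at 0.317 and 0.596 against 8.70 and 4.98 CPM (-3.97). In CD8 alone libraries the mean level of Lyz2 was 2.33%, of Csf1r 2.91% and of Gpnmb 6.31% of that in ILC2 alone libraries. Their CD8 alone replicates differed, with replicate 1 above replicate 2 for Lyz2, Lpl, Gpnmb, Clec7a, Fcgr2b, Fcer1g and Csf1r.

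Some of these falls rest on few reads. Fcgr2b had 4 and 3 reads in CD8 co-cultured libraries, 3.87% of its pooled level in CD8 alone libraries (95% exact counting interval 1.53% to 8.17%), and its log2 change of -4.73 was -4.10 without CD8 alone replicate 1. Csf1r had 7 and 1 reads, or 15.3% (6.22% to 33.0%), and its log2 change of -2.75 was -4.61 without CD8 co-cultured replicate 1 and -1.95 without CD8 co-cultured replicate 2. Tlr4 had 3 and 8 reads, or 30.2% (13.7% to 62.0%), and lost its call when CD8 co-cultured replicate 1 (edgeR adjusted p = 0.119) or CD8 alone replicate 2 (0.0626) was left out, and with DESeq2 (0.125). Its change without CD8 co-cultured replicate 2 was -2.61, beside -1.78 with all 4 libraries. Slpi, at 0.166 and 0.149 against 0.475 and 0.280 CPM (-1.32), was likewise not called with DESeq2 (adjusted p = 0.16) or without CD8 alone replicate 1 (edgeR adjusted p = 0.29), CD8 co-cultured replicate 1 (0.0639) or CD8 co-cultured replicate 2 (0.096). Mrc1, the mannose receptor gene, had 8 and 1 reads in CD8 co-cultured libraries against 2 and 4 reads in CD8 alone libraries and did not pass the low-count filter.

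Fabp5, Axl, Fcer1g and Fcgr3 also fell in co-cultured CD8 T cells. Fabp5 stood at 24.5 and 25.5 CPM in CD8 co-cultured libraries, against 113 and 94.7 CPM in CD8 alone libraries (log2 change -2.13, SE 0.0924). Axl stood at 11.8 and 12.9 CPM against 31.6 and 41.4 CPM (-1.65, SE 0.13). Fcer1g changed by -2.35 and Fcgr3 by -0.96. Spp1, the most prominent gene in ILC2 alone libraries, stood at 63.6 and 68.2 CPM in CD8 co-cultured libraries, against 68.6 and 83.5 CPM in CD8 alone libraries. Its log2 change of -0.29 (SE 0.0972, edgeR adjusted p = 0.0213) was not called without CD8 alone replicate 2 (adjusted p = 0.279), without CD8 co-cultured replicate 1 (0.103) or with library totals (0.0748). Not called in CD8 T cells were 6 genes, Apoe (log2 change 0.42), Cebpb (0.30), Itgam (-0.03), Tlr2 (-0.18), Tyrobp (-0.84) and Lilrb4a (-0.15).

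In the further lists, the CD8 table also held changes in both directions, where 30.2% of all tested genes were called higher and 30.7% lower. Of the alveolar macrophage genes tested there, 2 of 9 rose and 4 fell, with Atp6v0d2 at 4.06 and Pparg at -3.53 on the log2 scale. Of 12 monocyte and macrophage genes 3 rose and 5 fell, Ccr2 (3.53) and Stab1 (3.03) against Cd300lf (-2.94) and Ly6c2 (-2.71). Of 12 oxidase and kinase genes 7 rose and 3 fell, among them Fgr (2.26), Inpp5d (0.96) and the oxidase membrane subunit gene Cyba (-1.08). The 5 growth factor and receptor genes tested all fell in co-cultured CD8 T cells as they did in co-cultured ILC2s, with Csf2 at 0.529 and 0.567 CPM in CD8 co-cultured libraries, against 92.6 and 49.2 CPM in CD8 alone libraries (log2 change -7.09), and Csf1 at -5.50.

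Both tables held 23 of the 51 genes, and for these the change in ILC2s was tested against the change in CD8 T cells over all 8 libraries. The difference was called for 17 of the 23, and in each the ILC2 change was the lower. Of 15532 genes tested in this way, 32.6% were called lower and 21% higher, 53.6% in all, and the median difference over all of them was -0.12. The differences of Chil3 (-12.31, SE 1.08, edgeR adjusted p = 1.05e-07), Spp1 (-10.23, SE 0.171) and Itgax (-6.96, SE 0.272) were the largest of the 23. That of Chil3 was -16.69 without ILC2 co-cultured replicate 2 and -11.38 without ILC2 co-cultured replicate 1, and that of Csf1r (-3.95) was -4.76 without CD8 co-cultured replicate 2. Chil3, Itgax, Ncf1 and Cd68 fell in co-cultured ILC2s and rose in co-cultured CD8 T cells. The 6 genes whose difference was not called were Fabp5 (-0.31), Plin2 (0.07), Tlr4 (0.57), Fcgr2b (1.51, adjusted p = 0.0549), Lilrb4a (0.40, adjusted p = 0.0556) and Lilr4b (0.08). Under the alternatives, the difference of Lilrb4a was called in 7 of 15 and that of Fcgr2b in 5 of 15, in each with the ILC2 change the higher. That of Fabp5 was called in 1, at -0.59 without ILC2 co-cultured replicate 2. A difference that was not called does not show that both cell types changed alike. The 17 calls include Csf1r and Lyz2, which lost their calls when CD8 co-cultured replicate 1 was left out (edgeR adjusted p of 0.387 and 0.0892, with Csf1r at -2.11), and Fcer1g, which was not called in 9 of 15 alternatives.

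**Figure D4:**
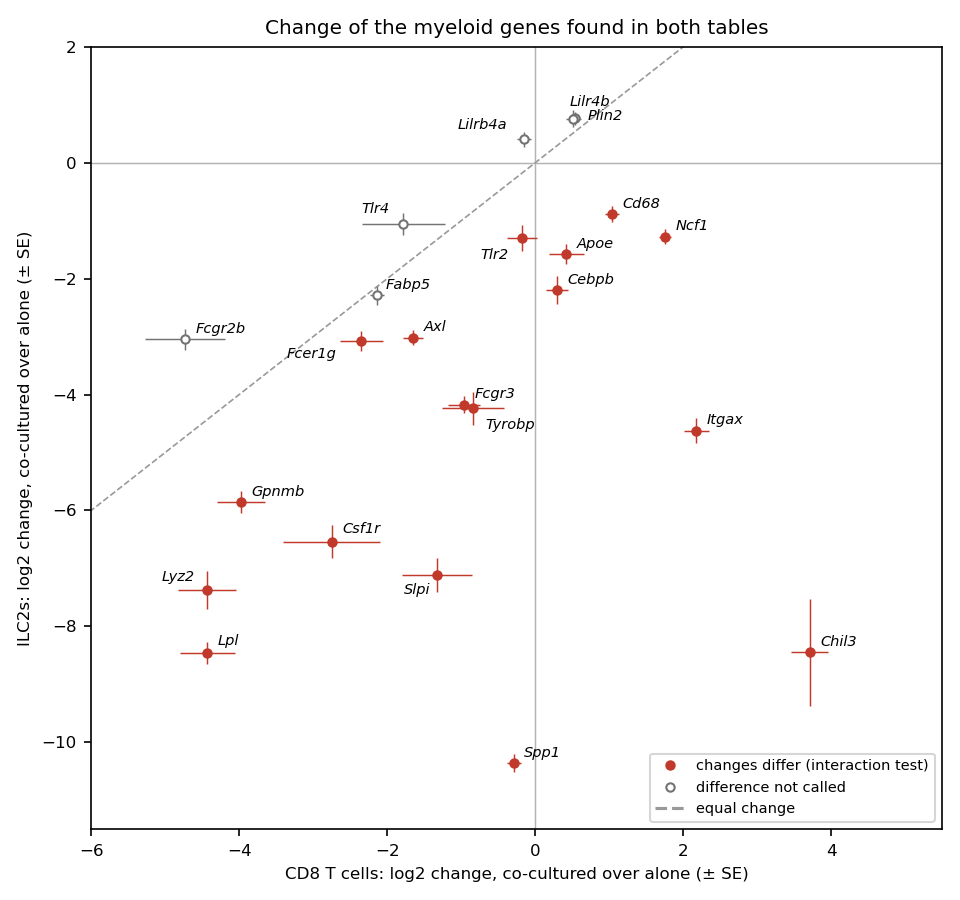
Log2 change, co-cultured over alone, of the 23 myeloid genes found in both tables, CD8 T cells across and ILC2s up, with SE bars from the fit of each cell type. Filled points are genes whose 2 changes differed in the test over 8 libraries and open points those not called; the dashed line marks equal change. The 17 filled points lie below the line, with Chil3 farthest at -8.45 in ILC2s and 3.71 in CD8 T cells.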

How the data were processed

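RNA of 8 libraries was measured by bulk RNA sequencing. Per the labels' protocols, Trizol was used for extraction and the SMART-Seq v4 kit for low RNA input for the libraries. The authors deposited whole-number read counts per gene symbol, in a table for each cell type. Per the submitters' processing notes, the build was mm10 and the tools were StringTie 2.1.3b, SAMtools 1.9, HISAT2 2.1.0 and Trimmomatic 0.38. What each tool did, which annotation and strand setting served and whether low counts were filtered is not given in the sources used. Both tables list only genes with at least 1 read in every library, which leaves out genes silent in a group. Totals ran from 48072595 to 67076905 counts per library.

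Each cell type was tested with edgeR 4.0.16 in R 4.3.3 on the deposited counts (low counts removed with filterByExpr, scaling by TMM, the quasi-likelihood F test, and p-values adjusted by Benjamini-Hochberg over all tested genes with a threshold of 0.05), and the difference between cell types over all 8 libraries and the genes in both tables. SE is the log2 change divided by the square root of F. Residual degrees of freedom were 2, 2 and 4 and prior ones 9.23, 10.42 and 11.54 (ILC2s, CD8 T cells, difference), so p-values rest largely on the spread of other genes. CPM are counts over the library total; log2 changes include the TMM factors. DESeq2 1.42.0, limma-voom (limma 3.58.1), other scalings and filters, a block by replicate number and left-out libraries were alternatives. Scripts were tested on simulated data. Exon lengths, overlaps and shared windows came from GENCODE M21, promoters from RefSeq (GRCm38.p6). The members and lists were chosen with earlier results of these data known; all 51 genes are named, and of other lists the defining markers and up to 4 called genes with the largest change and a mean of at least 1 CPM, apart from 1 gene that is not reported here.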

Additional observations from a re-analysis of the deposited data

Results flagged for a closer look

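For 17 of the 23 myeloid genes in both tables, the change of co-cultured over alone libraries differed between ILC2s and CD8 T cells in edgeR's test of the difference itself. Each value is the log2 change in ILC2s minus that in CD8 T cells. Of the alveolar macrophage and lipid genes, the difference was -12.31 for Chil3, -10.23 for Spp1, -6.96 for Itgax, -4.19 for Lpl, -2.16 for Apoe and -2.04 for Gpnmb. Of the identity genes it was -3.95 for Csf1r, -3.18 for Ncf1, -3.10 for Lyz2, -2.65 for Cebpb, -2.07 for Cd68 and -1.28 for Tlr2. It was -1.52 for the uptake receptor gene Axl, -3.56 for Tyrobp, -3.37 for Fcgr3 and -0.89 for Fcer1g of the Fc receptor group, and -5.96 for Slpi. The value of Chil3 was -16.69 without ILC2 co-cultured replicate 2 and -11.38 without ILC2 co-cultured replicate 1. Those of Lyz2 were -4.49 and -2.45, and those of Slpi -5.34 and -7.09, in the same order. Without CD8 co-cultured replicate 1 the value was -3.45 for Lpl and -2.11 for Csf1r, and without CD8 co-cultured replicate 2 it was -4.76 for Csf1r. The summed T cell markers also moved in opposite directions, at 311 and 382 CPM in ILC2 co-cultured against 1602 and 1565 CPM in ILC2 alone libraries, and at 6740.3 and 6698 CPM in CD8 co-cultured against 5113 and 5314 CPM in CD8 alone libraries. Their part in these differences was not tested. Scaling to ILC2 marker genes was not applied to this test.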

How the results depend on the processing

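Over 13 alternatives, 409 of 417 single-gene values in ILC2s kept their direction and their side of the threshold, as did 267 of 284 over 12 alternatives in CD8 T cells and 315 of 345 over 15 for the difference between cell types. The median log2 change of the myeloid genes in ILC2s was -3.92 with library totals, -5.35 with scaling to ILC2 markers and -3.20 in a fit of all 8 libraries, which holds 23 of the genes. Scaling to ILC2 markers left 0 genes higher and gave Plin2 -0.88, Lilrb4a -1.26 and Lilr4b -0.90. A filter of 5 CPM in 2 libraries left 11 genes in CD8 T cells, of which 3 were lower, with a median of 0.50; without the low-count filter the CD8 median was -0.56. With library totals Itgam in CD8 T cells was at 0.0547, and the differences of Plin2 and Lilr4b were -0.0947 and -0.089; the share of called differences that were higher was 29.0%, beside 39.2% with TMM scaling. Leaving out each library gave 9429 to 11053 genes called in ILC2s, 2 to 3 myeloid genes higher, 30 lower and medians of -3.79 to -3.65. In CD8 T cells it gave 8552 to 9092 genes called, 6 to 7 myeloid genes higher, 10 to 12 lower and medians of -0.85 to -0.51, with -0.51 when CD8 co-cultured replicate 1 was left out. It gave 14 to 18 called differences, and ranges of -0.13 to 0.10 for Itgam in CD8 T cells, -0.00514 to 0.12 for the difference of Plin2 and -0.11 to 0.24 for that of Lilr4b. The cause of these shifts was not tested, apart from the smaller gene sets named. Genes with under 10 reads in the co-cultured libraries are limited by depth.

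Within a cell type, the replicate numbers gave no sign of pairing co-cultured with alone libraries. Deviations of same-numbered libraries from their group means correlated at 0.04 in ILC2s and -0.03 in CD8 T cells. Pairing of same-numbered co-cultured ILC2 and CD8 T cell libraries, which may come from the same culture, was not checked. The main test of the difference took all 8 libraries as independent. With a block by replicate number, 11056 genes were called in ILC2s and 9732 in CD8 T cells, the counts of myeloid genes called in each were unchanged, and 19 differences were called, the 2 added being Fcgr2b (1.48) and Lilrb4a (0.39).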
